A study of Homo sapiens with 6 samples.

Results

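The ADAM, ADAMTS and ADAMTSL genes encode metalloproteinases and related proteins that act at the cell surface and in the extracellular matrix. All protein-coding genes named ADAM, ADAMTS or ADAMTSL followed by a number were taken, which gave 44 of the 58735 genes in the deposited table: 20 ADAM, 19 ADAMTS and 5 ADAMTSL genes. PolyA RNA was sequenced from HEY cells, a widely used ovarian cancer line of human origin, and the single comparison was 3 libraries of cells overexpressing the microRNA miR-200a against 3 libraries of cells carrying the empty vector (genotype HEY NC). Both groups were grown in RPMI-1640 with fetal bovine serum, all libraries carry batch number 1, and libraries were prepared with a SMARTer kit. By the labels, miR-200a dishes 1 to 3 were incubated for 48, 49 and 50 h and vector dishes 1 to 3 for 51, 52 and 53 h, so by these labels time and group cannot be told apart. The hours climb in steps of 1 h through the sample list and may not be true incubation times. How miR-200a was introduced, and whether cultures or clones differed between replicates, is not stated. The p-values therefore measure the spread between these libraries, which may be technical.

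ADAM proteins are membrane-anchored. Those with an intact catalytic site cut the outer part of other membrane proteins close to the membrane, a reaction called shedding that releases growth factors, cytokines and adhesion molecules, while ADAMs without that site serve as binding partners. ADAMTS proteases are secreted, carry thrombospondin repeats and cut matrix proteins such as versican, procollagens and fibrillin-associated proteins; versican cleavage by ADAMTS1 is known for its part in mouse ovulation. ADAMTSL proteins share the thrombospondin repeats and lack the protease domain. MicroRNAs such as miR-200a pair through a short seed with sites in the 3' untranslated region (3' UTR) of a messenger RNA and lower its stability or translation.

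The mature miR-200a-3p sequence (RefSeq, GRCh38.p14, chr1:1167916-1167937, plus strand) is shown because its seed, bases 2 to 8 in capitals, defines the sites searched for in the 44 genes.
hsa-miR-200a-3p: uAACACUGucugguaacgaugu

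The 7-mer CAGTGTT, which pairs with that seed, was looked for on the sense strand of each gene's longest 3' UTR (GENCODE 29, GRCh38), and CAGTGTTA was counted as an 8-mer match that contains the 7-mer. Of the 44 genes, 7 held a 7-mer (15.9%), against 18.1% of all 19434 genes with an annotated 3' UTR. The 5 genes with a match and reads in these libraries were ADAM10, ADAM22, ADAM23, ADAMTS18 and ADAMTS2. Their matches are printed with the flanking bases, each on the transcript strand with the match in capitals; all lie in 3' UTR exons.
ADAM10, chr15:58595328-58595349, minus strand: agcttcccacaaggCAGTGTTt
ADAM10, chr15:58594971-58594992, minus strand: gagaattgacatttCAGTGTTA
ADAM22, chr7:88198438-88198459, plus strand: gggtgagtgttgggCAGTGTTg
ADAM22, chr7:88200150-88200171, plus strand: ttattcacttttttCAGTGTTt
ADAM23, chr2:206617676-206617697, plus strand: tgacatactcgcagCAGTGTTA
ADAMTS18, chr16:77283058-77283079, minus strand: atgacaaaacacagCAGTGTTt
ADAMTS2, chr5:179113202-179113223, minus strand: ccggccttgccagaCAGTGTTc

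Levels are FPKM (fragments per kilobase of gene, scaled for each library by the authors). The recovered scaling totals were proportional to size factors, each the median ratio of a library's reads to the gene means over all libraries. The test was limma on log2(FPKM + 1) over the 12231 genes with at least 1 FPKM in at least 3 libraries. It gave two-sided Benjamini-Hochberg adjusted p-values, with a threshold of 0.05. Log2 changes are on the log2(FPKM + 1) scale, which understates the change of low genes. The libraries held 15849592 to 21003858 recovered reads on genes, and a 1-kb gene with 1 read had 0.0475 to 0.0626 FPKM. Reads on the precursor gene MIR200A numbered 5, 4 and 11 in miR-200a cells, with none in vector cells. Of 10 ovarian cancer line markers, PAX8, SOX17, MSLN, KRT7, KRT8 and KRT18 passed the filter, whereas CDH1 and MUC16 were listed at 0 in all 6 libraries and EPCAM averaged 0.131 FPKM in miR-200a and 0.263 FPKM in vector cells. WT1 lay below the filter at 0.957 FPKM in miR-200a and 0.951 FPKM in vector cells. The summed level of all 10 markers was 403 to 506 FPKM in miR-200a libraries and 351 to 390 FPKM in vector libraries. Of 11 markers of other cell types, CDH5, a cadherin of endothelial cells, was the single one above the filter, with 47.0 ± 6.50 FPKM in miR-200a and 38.0 ± 3.72 FPKM in vector cells (SD, n = 3 each). PECAM1, also a marker of endothelial cells, averaged only 0.354 FPKM in miR-200a and 0.304 FPKM in vector cells. CD3E and HBB were listed at 0 throughout, and PTPRC did not exceed 0.012 FPKM. The list summed to 40.3 to 51.8 FPKM in miR-200a and 35.6 to 42.9 FPKM in vector libraries. In bulk RNA, fewer cells of a type and less RNA per cell cannot be told apart.

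HEY cells transcribed 35 of the 44 genes in at least 1 library. The mean over the 6 libraries was at least 10 FPKM for 7 genes, between 1 and 10 FPKM for 9, above 0 and below 1 FPKM for 19, and 0 for 9. ADAM9 and ADAM19 together made up 40.3 to 43.8% of the summed FPKM of all members in each library, and with ADAMTS1, ADAM15 and ADAMTS6 the share was 69.0 to 72.5%. ADAM19 was above ADAM9 in miR-200a 1, miR-200a 3 and vector 1 and below it in the other 3 libraries, so the order of the 2 highest genes was not fixed.

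**Figure D1:**
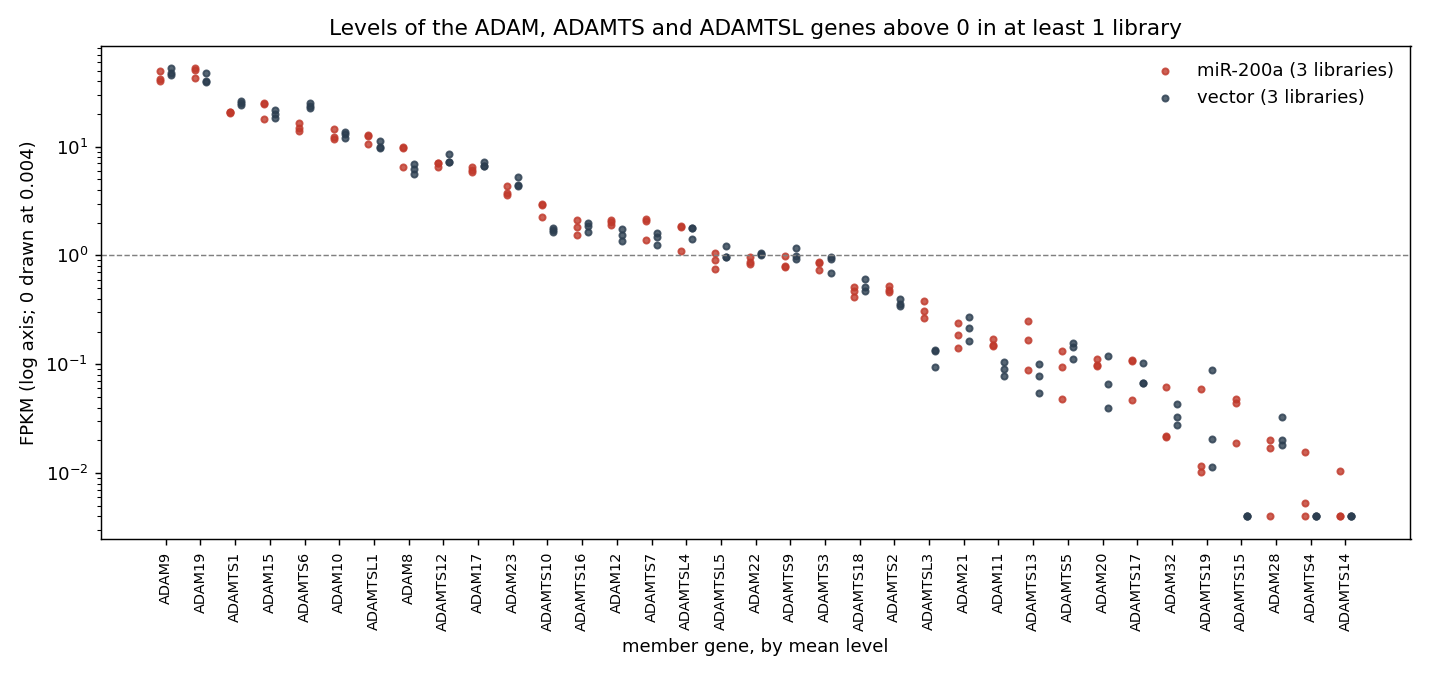
FPKM of the 35 members above 0 in at least 1 library, on a log axis and ordered by mean level, with 1 point per library (miR-200a left, vector right; values of 0 drawn at the bottom; dashed line at 1 FPKM). The points of both groups lie close together for most genes, and ADAMTS6, ADAMTS10 and ADAMTSL3 are among those where they stand apart.

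In miR-200a cells ADAMTS6 fell, no other member passed the threshold in the same test, and the median log2 change of the 17 tested members was -0.0088, beside -0.0090 over all tested genes. Of the 12231 tested genes, 0.401% were called in either direction. None of the 17 members was called higher, where 0.286% of all tested genes were, and 1 was called lower, where 0.114% of all tested genes were. At an unadjusted p under 0.05, 3 members were higher and 2 lower, against 6.92% and 6.35% of all tested genes (13.3% in both directions). The change was positive in 7 members and negative in 10, where 5879 and 6352 of all 12231 tested genes were. The groups did not overlap for 2 members that were higher and 6 that were lower in miR-200a cells, where 8.29% and 10.7% of all tested genes had such values. ADAM22 passed the filter through its 3 vector libraries alone.

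**Figure D2:**
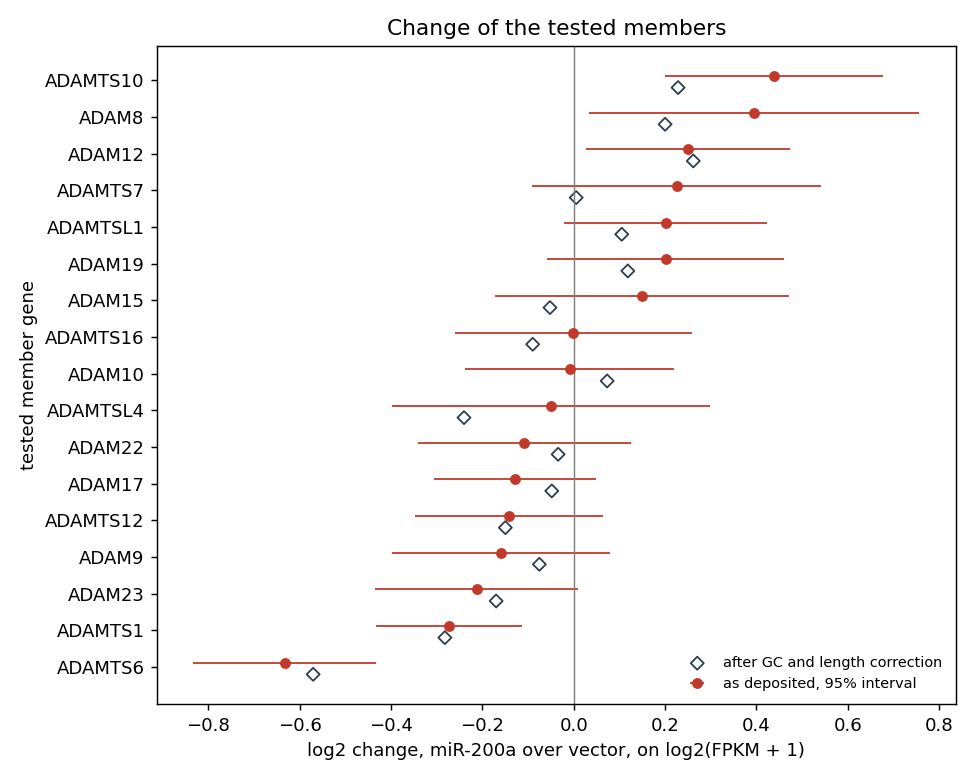
Log2 change of the 17 tested members, miR-200a over vector, on log2(FPKM + 1): circles with 95% intervals from limma, and diamonds after removal of each library's trend with GC content and length. ADAMTS6 is lowest at -0.63 and ADAMTS10 highest at 0.44; the diamonds of ADAM15 and ADAM10 lie on the other side of 0 from their circles.

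Among the membrane proteases, 7 of 12 were tested and none was called by limma. At an unadjusted limma p under 0.05, 2 were higher and none lower, against 6.92% and 6.35% of all tested genes. The count test on recovered reads (limma's voom), which called 1.31% of its 15172 tested genes, called none either. ADAM10, which makes the activating cut in Notch receptors and sheds many other membrane proteins, had 12.2, 14.6 and 11.9 FPKM in miR-200a libraries 1 to 3 and 12.1, 13.7 and 13 FPKM in vector libraries 1 to 3. The groups overlapped, and the log2 change was -0.0088 with a 95% interval of -0.24 to 0.22 (limma adjusted p = 0.970); its sign turned to 0.02 when libraries were rescaled to equal sums. ADAM10 carries 2 of the printed seed matches. ADAM17, the TNF-converting enzyme, had 5.79, 6.55 and 6.13 FPKM in miR-200a and 7.25, 6.67 and 6.57 FPKM in vector libraries. All 3 miR-200a values lay below all 3 vector values, with a log2 change of -0.13, an interval of -0.31 to 0.05 and a limma adjusted p of 0.468.

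ADAM8, a protease of myeloid and tumour cells that activates itself, had 9.64, 6.52 and 9.88 FPKM in miR-200a and 6.98, 5.63 and 6.24 FPKM in vector libraries. Libraries miR-200a 1 and 3 were above all vector libraries and miR-200a 2 lay among them; the log2 change was 0.39 ± 0.154 (SE; limma adjusted p = 0.351). Without miR-200a 2 it was 0.57 (limma adjusted p = 0.0498, when 1.84% of all tested genes were called). No other fit with 1 library left out called ADAM8 (limma adjusted p up to 0.816). With all libraries but corrected for GC and length, the log2 change was 0.20. ADAM12 (meltrin alpha), which cuts insulin-like growth factor binding proteins, had 2.04, 1.92 and 2.10 FPKM in miR-200a and 1.74, 1.35 and 1.54 FPKM in vector libraries. Its groups did not overlap, and its log2 change of 0.25 ± 0.0948 (SE) had a limma adjusted p of 0.342.

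The 3 most abundant membrane proteases showed overlapping groups. ADAM9 (meltrin gamma) had 41.6, 49.4 and 39.8 FPKM in miR-200a and 45.8, 52.2 and 47.9 FPKM in vector libraries, with a log2 change of -0.16 (limma adjusted p = 0.505). ADAM19 (meltrin beta), which is needed for heart development in mice, had 50.6, 42.6 and 52.4 FPKM in miR-200a and 47.1, 39.1 and 40.0 FPKM in vector libraries, with a log2 change of 0.20 (limma adjusted p = 0.452). ADAM15, whose disintegrin domain binds integrins, had 24.8, 18.0 and 25.1 FPKM in miR-200a and 21.8, 18.5 and 20.1 FPKM in vector libraries. Its log2 change was 0.15 (limma adjusted p = 0.630) and turned to -0.05 after the GC and length correction. ADAM9 was highest, and ADAM19 and ADAM15 lowest, in the library numbered 2 of each group, save that vector 3 was near vector 2 for ADAM19. The 20 ADAM genes summed to 152, 145 and 152 FPKM in miR-200a libraries and to 150, 143 and 141 FPKM in vector libraries, groups that overlap.

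Of the 8 ADAMs without a catalytic site, 2 were tested, ADAM22 and ADAM23, which are receptors for the secreted LGI proteins at synapses. Neither was called by limma or by the count test, and neither had an unadjusted limma p under 0.05. ADAM23 had 3.76, 4.31 and 3.61 FPKM in miR-200a and 5.23, 4.40 and 4.39 FPKM in vector libraries. All miR-200a values were lower, by a small margin for miR-200a 2, and the log2 change was -0.21 with an interval of -0.43 to 0.01 (limma adjusted p = 0.390). ADAM22, described for its seed matches after its values were seen, had 0.967, 0.862 and 0.838 FPKM in miR-200a and 1.02, 1.04 and 1.05 FPKM in vector libraries, with a log2 change of -0.11 (limma adjusted p = 0.630). ADAM11, another LGI receptor, lay below the filter at 0.155 ± 0.0134 FPKM in miR-200a and 0.091 ± 0.014 FPKM in vector cells (SD, n = 3 each). Its groups did not overlap, with 13, 13 and 13 reads in miR-200a and 9, 9 and 6 reads in vector libraries. ADAM11 met the read filter of the count test through its miR-200a libraries alone, a selection that favours a positive value. Its adjusted p in the count test was 0.363. Of the 4 LGI genes, 3 were listed at 0 in all libraries and LGI2 did not exceed 0.0195 FPKM.

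The secreted ADAMTS proteases held the change that passed the threshold. ADAMTS6 (ENSG00000049192, chr5:65148736-65481920, minus strand, GRCh38), a close relative of ADAMTS10 that is known to act on fibrillin microfibrils and is needed for heart development in mice, had 14.7, 16.5 and 14.0 FPKM in miR-200a and 25.3, 23.7 and 22.6 FPKM in vector libraries. Every miR-200a library lay below every vector library, with a gap wider than the range within either group. The means were 15.1 ± 1.26 FPKM in miR-200a and 23.9 ± 1.39 FPKM in vector cells (SD, n = 3 each), 1.58-fold lower in miR-200a cells. The log2 change was -0.63 with a 95% interval of -0.83 to -0.43 (limma adjusted p = 0.0382). The count test on recovered reads gave -0.67 (voom adjusted p = 0.00465), and it called 0.336% of its tested genes lower. In that test ADAMTS6 stayed past the threshold with any 1 library left out (adjusted p 0.00101 to 0.0308). In limma on FPKM it kept the call without miR-200a 2 (adjusted p = 0.0336) and lost it without any other single library (0.126 to 0.206, when 0.0654 to 0.0736% of all tested genes were called), and also under rescaling to equal sums (0.0547), a lower filter of 0.1 FPKM (0.0627) or no filter (0.119). After the GC and length correction the change was -0.57 (limma adjusted p = 0.00808, when 0.703% of all tested genes were called lower). Its longest 3' UTR held no CAGTGTT.

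The tested genes around ADAMTS6 were also mostly negative. Of 11 within 1 Mb, 10 had a negative log2 change, with a median of -0.17, a range of -0.26 to 0.41 and none called by limma. Over all tested genes, 6352 of 12231 had a negative change. After the GC and length correction, 7 of the 11 were negative and the median was -0.07. The change of ADAMTS6 lay outside the range of its neighbours, whose transcripts had a median GC content of 37.3%.

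ADAMTS10, in which mutations cause a form of Weill-Marchesani syndrome and which binds fibrillin-1, had 2.95, 2.26 and 2.89 FPKM in miR-200a and 1.79, 1.72 and 1.66 FPKM in vector libraries. The groups did not overlap, miR-200a 2 was nearest to the vector libraries, and the ratio of means was 1.57. The log2 change was 0.44 with an interval of 0.20 to 0.68 (limma adjusted p = 0.182; voom 0.64, adjusted p = 0.0534). Without miR-200a 2 it was 0.53 and passed the threshold (limma adjusted p = 0.0474, when 1.84% of all tested genes were called). No other fit with 1 library left out called ADAMTS10 (limma adjusted p up to 0.585). Corrected for GC and length the log2 change was 0.23 (adjusted p = 0.259, when 1.1% of all tested genes were called higher). The sum of ADAMTS6 and ADAMTS10 was 17.7, 18.7 and 16.9 FPKM in miR-200a and 27.1, 25.4 and 24.2 FPKM in vector libraries.

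**Figure D3:**
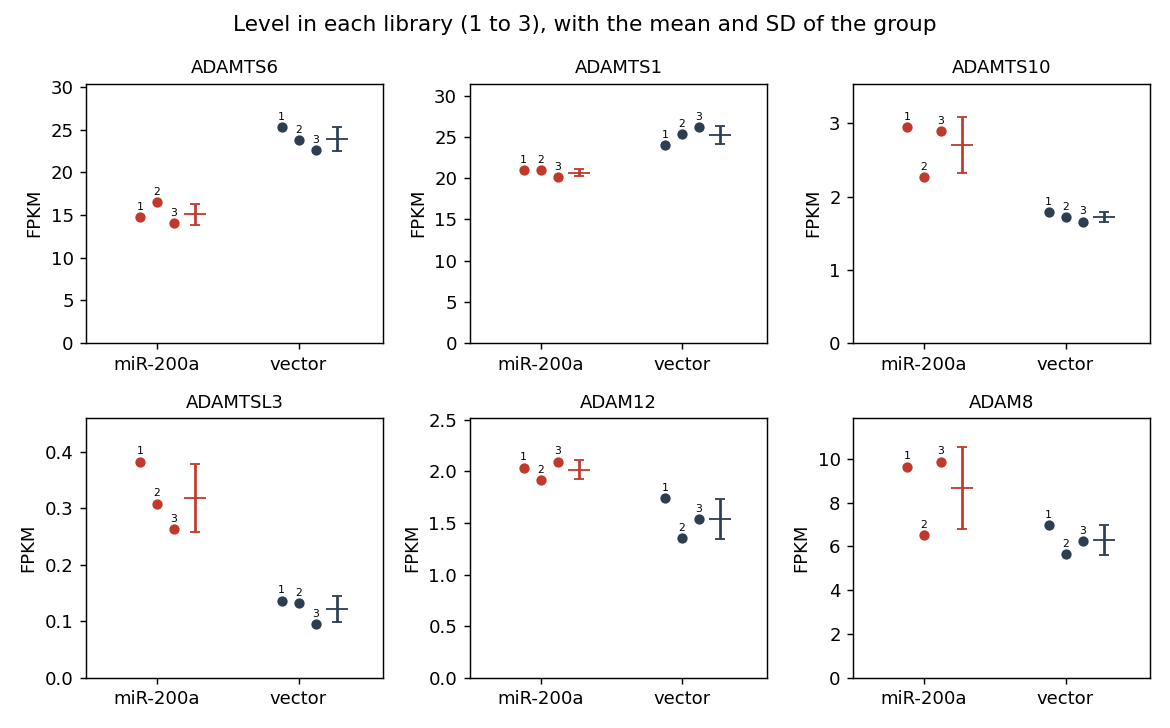
FPKM of 6 members in each library, numbered 1 to 3 (miR-200a left, vector right), with the mean and SD of each group; each panel starts at 0. ADAMTS6 and ADAMTS1 are lower in every miR-200a library, ADAMTS10, ADAMTSL3 and ADAM12 are higher in every one, and for ADAM8 miR-200a 2 lies among the vector libraries.

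Of the 7 proteases of the versican and aggrecan branch, ADAMTS1 alone was tested; it was not called by limma or by voom and had an unadjusted limma p under 0.05. It had 21, 21 and 20.1 FPKM in miR-200a and 24.0, 25.4 and 26.2 FPKM in vector libraries. The groups did not overlap, with means of 20.7 ± 0.472 FPKM in miR-200a and 25.2 ± 1.12 FPKM in vector cells (SD, n = 3 each). The log2 change was -0.27 with an interval of -0.43 to -0.11 (limma adjusted p = 0.209) and -0.28 after the GC and length correction (adjusted p = 0.109). ADAMTS9, which also cuts versican, lay just below the filter at 0.853 ± 0.116 FPKM in miR-200a and 1.03 ± 0.125 FPKM in vector cells (SD, n = 3 each; voom adjusted p = 0.408). The aggrecanases ADAMTS5 and ADAMTS4 were scarce: ADAMTS5 averaged 0.0921 FPKM in miR-200a and 0.137 FPKM in vector cells, and ADAMTS4 had 4 reads in all miR-200a libraries and 0 in all vector libraries.

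ADAMTS12 and ADAMTS7, which cut cartilage oligomeric matrix protein, were both tested and neither was called by limma or voom, nor had an unadjusted limma p under 0.05. ADAMTS12 had 7.05, 6.44 and 7.09 FPKM in miR-200a and 8.61, 7.25 and 7.21 FPKM in vector libraries, groups that did not overlap by a narrow margin (log2 change -0.14, limma adjusted p = 0.489). ADAMTS7 had 2.08, 1.39 and 2.15 FPKM in miR-200a and 1.49, 1.24 and 1.59 FPKM in vector libraries. Its groups overlapped, and its log2 change of 0.23 (limma adjusted p = 0.476) was 0.0055 after the GC and length correction. ADAMTS7 overlaps MORF4L1 on the opposite strand (38.5 FPKM in miR-200a and 36.4 FPKM in vector cells), and the sources used here do not say whether counting used strand, so reads of the 2 genes could be mixed. The same holds for ADAM19 with CYFIP2 (6.22 FPKM in miR-200a and 7.65 FPKM in vector cells) and for ADAM17 with IAH1 (2.75 FPKM in miR-200a and 2.79 FPKM in vector cells). The 3 procollagen N-proteinases ADAMTS2, ADAMTS3 and ADAMTS14 were all below the filter. Of these, ADAMTS2 had 0.484, 0.524 and 0.460 FPKM in miR-200a and 0.397, 0.359 and 0.340 FPKM in vector libraries, higher in every miR-200a library (voom log2 change 0.41, adjusted p = 0.317); it holds 1 of the printed seed matches.

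The 19 ADAMTS genes summed to 52.9, 51.9 and 51.5 FPKM in miR-200a libraries and to 66.8, 64.0 and 63.8 FPKM in vector libraries. The groups lay well apart, at 52.1 ± 0.722 FPKM in miR-200a and 64.9 ± 1.67 FPKM in vector cells (SD, n = 3 each). Of the difference of -12.8 FPKM between these means, ADAMTS6 accounted for -8.81 FPKM and ADAMTS1 for -4.53 FPKM, while ADAMTS10 added 0.98 FPKM. No test was made of these sums.

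Among the ADAMTSL genes, 2 of 5 were tested and neither was called by limma or had an unadjusted p under 0.05; the count test called 1 of 4 higher. ADAMTSL3 (punctin-2, chr15:83654086-84039842, plus strand) had 68, 48 and 48 reads in miR-200a and 28, 23 and 15 reads in vector libraries, or 0.318 ± 0.0602 FPKM in miR-200a and 0.121 ± 0.0227 FPKM in vector cells (SD, n = 3 each). Every miR-200a library was above every vector library, and the ratio of means was 2.63. By the count test the log2 change was 1.36 (voom adjusted p = 0.0376), in a test that called 0.975% of all genes higher. The call held without miR-200a 2 (adjusted p = 0.0205) or miR-200a 3 (0.0467) and was lost without any other single library (0.104 to 0.158). Of 14 tested genes within 1 Mb, 12 had a positive log2 change, with a median of 0.10 and none called by limma. Over all tested genes, 5879 of 12231 had a positive change. After the GC and length correction, 1 of the 14 neighbours was negative and their median was 0.13. ADAMTSL1 (punctin-1), the most abundant ADAMTSL gene, had 12.4, 10.6 and 12.8 FPKM in miR-200a and 11.2, 9.62 and 10.0 FPKM in vector libraries. Its groups overlapped through miR-200a 2 and vector 1 (log2 change 0.20, limma adjusted p = 0.408). The remaining tested members, ADAMTSL4 and ADAMTS16, had log2 changes of -0.05 and -0.00065 and limma adjusted p-values of 0.890 and 0.998.

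Below the filter but above 0 were 18 members, at means of at most 1.06 FPKM in either group. ADAMTS15, a versican-cutting enzyme, had 5, 4 and 2 reads in miR-200a libraries and none in the vector libraries. The 11 reads (95% Poisson interval 5.49 to 19.7, counting error only) gave 3.82 times the level of a floor of 3 reads over the 3 vector libraries. At the lower limit of that interval, its level was at least 1.91-fold higher than the floor. ADAMTS13, the von Willebrand factor protease, had 26, 8 and 18 reads in miR-200a and 12, 8 and 5 reads in vector libraries (voom adjusted p = 0.336), with REXO4 on the opposite strand at 20.9 FPKM in miR-200a and 20.2 FPKM in vector cells. ADAM20 and ADAM21 are close copies of each other and of a pseudogene, so their low values may be shared between them.

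The 9 members listed at 0 in all 6 libraries were ADAM2, ADAM7, ADAM18, ADAM29 and ADAM30, known mostly from testis and epididymis, with ADAM33, ADAMTS8, ADAMTS20 and ADAMTSL2. A count of 0 over all libraries allows up to 3 reads, which corresponds to 0.0038 to 0.0096 FPKM depending on gene length. The seed matches of ADAMTS8 and ADAMTS20 therefore lie in genes without detected RNA.

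The 3 tested members with a seed match were ADAM10, ADAM22 and ADAM23, with log2 changes of -0.0088, -0.11 and -0.21. ADAM22 entered the test through its vector libraries alone, a selection that favours a negative value, so no median is given for the 3. Over all tested genes with an annotated 3' UTR, 2264 of 10219 (22.2%) had a match, with a median of -0.05 with and 0.01 without it. None of the 3 was called by limma or by voom. The 2 tested members with an 8-mer were ADAM10, whose groups overlapped, and ADAM23, whose miR-200a values were all lower. Such lower values without overlap were found in 10.7% of all tested genes.

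Differences between libraries of one group followed GC content among these genes. The GC content of the 17 tested members' longest transcripts ran from 38.3 to 65.7%. Across them, the difference of miR-200a 2 from the mean of miR-200a 1 and 3 had a Pearson r of -0.927 with GC content, the difference of vector 2 from vector 1 and 3 an r of -0.646, and the log2 change between the groups an r of 0.659. Over 12227 tested genes the same values were -0.588, -0.273 and 0.430. These are descriptions across genes of the same 6 libraries, in which genes are not independent replicates. The GC-rich ADAM8, ADAM15, ADAMTS7 and ADAMTSL4 were lowest in miR-200a 2 among the miR-200a libraries, and the GC-poor ADAM9, ADAM10 and ADAM17 were highest there. In 11 of 17 members (64.7%) miR-200a 2 was nearer to the vector mean than both other miR-200a libraries, as in 55.3% of all tested genes. After the GC and length correction, the log2 change was -0.08 for ADAM9, 0.12 for ADAM19, 0.07 for ADAM10, -0.05 for ADAM17 and 0.11 for ADAMTSL1, each closer to 0 than before except for ADAM10, whose sign turned. It was 0.26 for ADAM12, -0.17 for ADAM23 and -0.15 for ADAMTS12, and -0.03 for ADAM22, -0.24 for ADAMTSL4 and -0.09 for ADAMTS16. None of these 11 had a corrected limma adjusted p under the threshold. The part of GC content in the changes between groups was not tested in any other way.

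**Figure D4:**
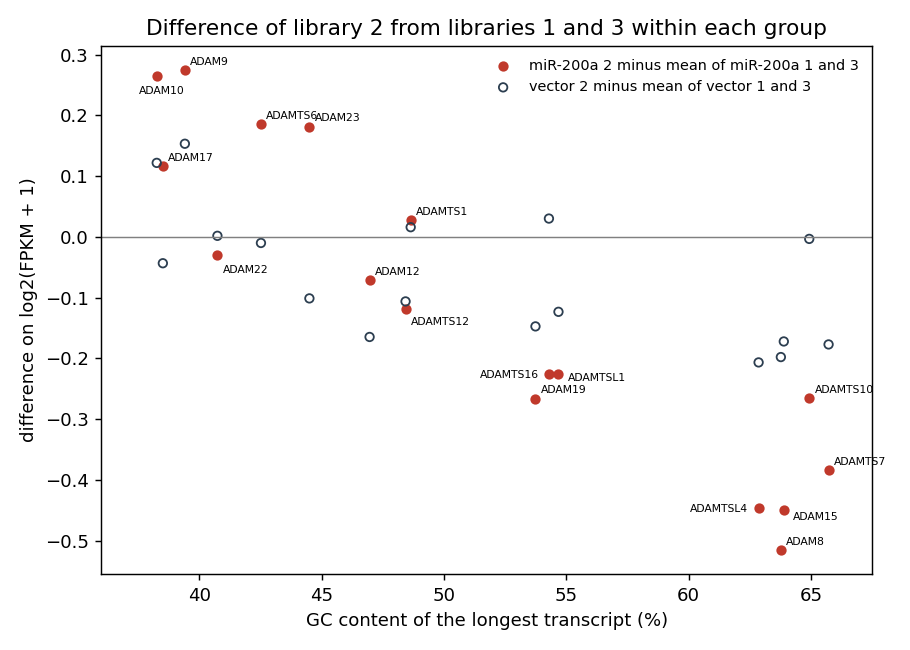
Difference of library 2 from the mean of libraries 1 and 3 on log2(FPKM + 1), against the GC content of the longest transcript, for the 17 tested members (filled and named, miR-200a; open, vector). The miR-200a points fall with GC content (r = -0.927), from above 0 for ADAM9 and ADAM10 to below 0 for ADAM8, and the vector points do so less steeply (r = -0.646).

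The genes that activate, carry, inhibit or are cut by these proteases were taken as 6 lists. None of their 41 tested genes was called by limma, and the count test called TIMP3 higher and TFPI2 lower. Over all tested genes, limma called 0.401% and the count test 1.31%. Of the 14 maturation and transport genes of ADAM10 and ADAM17, 11 were tested. The change was positive in 10 of them, where 5879 of all 12231 tested genes were positive. At an unadjusted limma p under 0.05, 4 were higher and none lower, against 6.92% and 6.35% of all tested genes. The list's median was 0.21, beside -0.0090 over all genes. After the GC and length correction the median was 0.12, with 8 positive and 3 negative changes. FURIN, the proprotein convertase that removes the prodomain of many ADAMs, had 25.3, 16.8 and 25 FPKM in miR-200a and 16.9, 14.3 and 15.5 FPKM in vector libraries (log2 change 0.48, limma adjusted p = 0.314). Without miR-200a 2, which lay among the vector libraries, it passed the threshold (limma adjusted p = 0.0377, when 1.84% of all tested genes were called). No other fit with 1 library left out called FURIN (limma adjusted p up to 0.775). Corrected for GC and length its change was 0.30 (adjusted p = 0.117). TSPAN14, a tetraspanin that escorts ADAM10 to the surface, had 16.2, 14.5 and 16.9 FPKM in miR-200a and 13.8, 11.8 and 12.3 FPKM in vector libraries. Its groups did not overlap, and neither did those of TSPAN5, another escort of ADAM10, at 13 ± 0.530 FPKM in miR-200a and 11.2 ± 0.344 FPKM in vector cells (SD, n = 3 each). The limma adjusted p-values were 0.273 and 0.314, and 0.0306 and 0.0361 after the GC and length correction, which called 1.8% of all tested genes. FRMD8, which stabilises the iRhom partners of ADAM17, averaged 9.01 FPKM in miR-200a and 7.11 FPKM in vector cells, with a log2 change of 0.29 (adjusted p = 0.373) that was 0.12 when corrected for GC and length (adjusted p = 0.275).

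Of the 8 inhibitors and clearance genes, 5 were tested, with a median of -0.12, and of -0.07 after the GC and length correction. At an unadjusted limma p under 0.05, 1 was higher and 1 lower, against 6.92% and 6.35% of all tested genes. TIMP3, an inhibitor of ADAM10, ADAM17 and several ADAMTS proteases, had 1.5, 1.28 and 1.65 FPKM in miR-200a and 0.454, 0.474 and 0.738 FPKM in vector libraries. All miR-200a values were well above the vector values. The log2(FPKM + 1) change was 0.67 (limma adjusted p = 0.10) and the count test gave 1.46 (voom adjusted p = 0.00772). TIMP3, the 1 gene counted as higher above, passed the limma filter through its miR-200a libraries alone, a selection that favours a positive value. Its 39 to 142 reads per library met the filter of the count test in both groups. TIMP1 had 29.8, 29.5 and 29.3 FPKM in miR-200a and 32.9, 34.6 and 36.1 FPKM in vector libraries, lower in every miR-200a library (limma adjusted p = 0.285, and 0.0317 after the GC and length correction). TIMP2 averaged 75.4 ± 3.11 FPKM in miR-200a and 68.0 ± 1.40 FPKM in vector cells (SD, n = 3 each; limma adjusted p = 0.408), and RECK, a membrane-anchored inhibitor, 3.42 FPKM in miR-200a and 3.79 FPKM in vector cells (adjusted p = 0.532). The log2 changes of TIMP2 and RECK, 0.15 and -0.12, were 0.07 and -0.07 when corrected for GC and length. Those of TIMP3 and TIMP1, 0.67 and -0.22, were 0.66 and -0.31.

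Of 28 genes of shed membrane proteins, 16 were tested, with a median of 0.10. At an unadjusted limma p under 0.05, 3 were higher and none lower, against 6.92% and 6.35% of all tested genes. The median turned to -0.01 after the GC and length correction, with 7 positive and 9 negative changes. HBEGF, a ligand of the EGF receptor released by shedding, had 4.78, 3.90 and 4.20 FPKM in miR-200a and 3.45, 3.11 and 3.13 FPKM in vector libraries. SDC1, a cell surface proteoglycan, had 56.2, 44.2 and 54.4 FPKM in miR-200a and 37.6, 38.8 and 44.0 FPKM in vector libraries. Both had groups without overlap, with limma adjusted p-values of 0.241 and 0.300. The receptor tyrosine kinase AXL averaged 187 FPKM in miR-200a and 159 FPKM in vector cells, and SDC4 98.4 FPKM in miR-200a and 88.5 FPKM in vector cells (adjusted p = 0.362 and 0.411). The log2 changes of SDC1 and AXL, 0.35 and 0.23, were 0.19 and 0.15 when corrected for GC and length. Those of HBEGF and SDC4, 0.32 and 0.15, were 0.30 and 0.15.

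Of 20 matrix substrates, 7 were tested, with a median of 0.07, and of 0.09 after the GC and length correction. At an unadjusted limma p under 0.05, 2 were higher and 2 lower, against 6.92% and 6.35% of all tested genes. TFPI2, a serine protease inhibitor cut by ADAMTS1, had 41.3, 44.3 and 38.7 FPKM in miR-200a and 53.1, 61.8 and 60.7 FPKM in vector libraries. Every miR-200a value was lower, and the log2 change was -0.49 (limma adjusted p = 0.10; voom -0.50, adjusted p = 0.0300; -0.39 after the GC and length correction, adjusted p = 0.0202). VCAN, versican, had 17.4, 17.9 and 18.1 FPKM in miR-200a and 26.7, 22.5 and 21.1 FPKM in vector libraries, lower in every miR-200a library (log2 change -0.37, limma adjusted p = 0.222). FN1, fibronectin, averaged 306 ± 21.1 FPKM in miR-200a and 241 ± 32.6 FPKM in vector cells (SD, n = 3 each; adjusted p = 0.297). LTBP1, which holds latent TGF-beta in the matrix, averaged 3.22 FPKM in miR-200a and 2.64 FPKM in vector cells (limma adjusted p = 0.350). The log2 changes of VCAN, FN1 and LTBP1, -0.37, 0.35 and 0.22, were -0.31, 0.42 and 0.16 when corrected for GC and length. Both glycosylation genes of thrombospondin repeats were tested. B3GLCT averaged 3.08 FPKM in miR-200a and 3.90 FPKM in vector cells without overlap (limma adjusted p = 0.288). Its log2 change was -0.26, and -0.19 when corrected for GC and length. POFUT2 averaged 5.69 FPKM in miR-200a and 5.02 FPKM in vector cells (limma adjusted p = 0.520). Its log2 change was 0.15, and 0.0032 when corrected for GC and length.

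**Figure D5:**
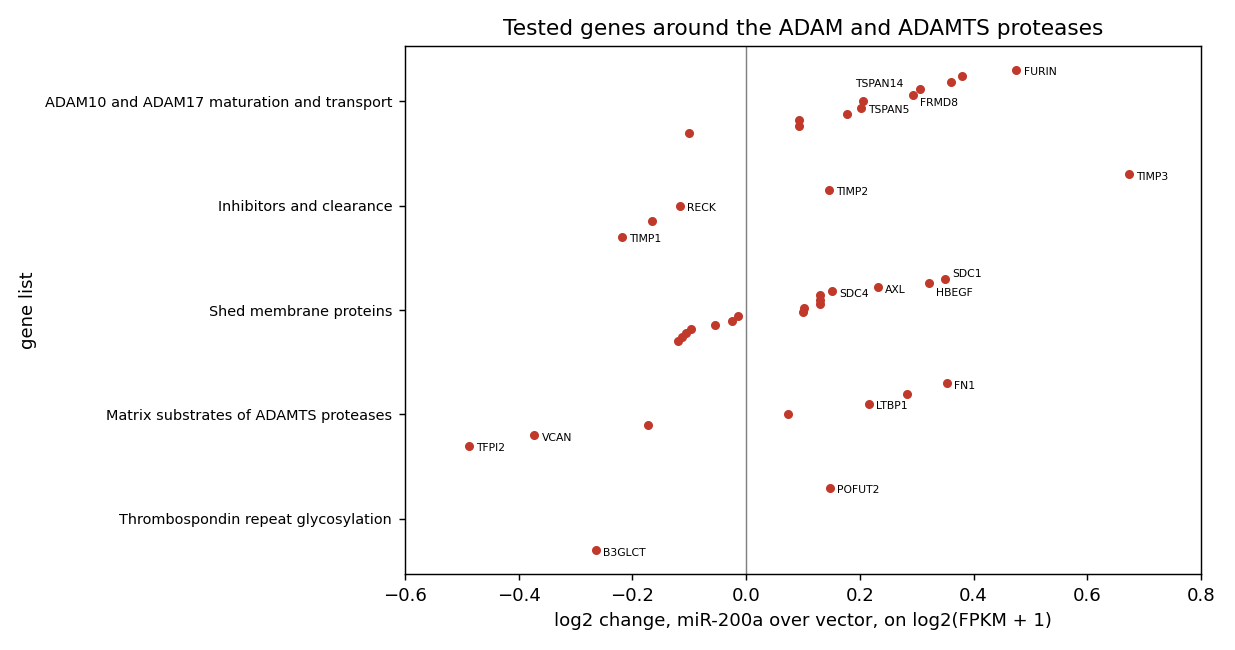
Log2 change, miR-200a over vector, on log2(FPKM + 1), of the 41 tested genes in the lists with tested members, 1 point per gene, with up to 4 genes per list named. Most maturation and transport genes lie right of 0, TIMP3 is the rightmost point at 0.67 and TFPI2 the leftmost at -0.49, and none passed the threshold in limma. TIMP3 passed the filter through its miR-200a libraries alone.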

How the data were processed

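The deposited FPKM values were made by the authors, by an aligner and counter that the sources used here do not name. Mouse builds (GRCm38, mm10) stand in the submitters' processing notes, but all 58735 gene identifiers, starts, ends and strands equalled human GENCODE 29, so coordinates are GRCh38. Whole reads were recovered for 100% of nonzero values (within 0.01 of a read) from FPKM, gene length and a total fitted to each library. limma 3.58.1 (R 4.3.3; lmFit, eBayes with a trend) was run on log2(FPKM + 1), and voom, as an alternative, on reads of genes with at least 10 reads in at least 3 libraries. Both were run on simulated reads with known changes and no GC effect. That run does not cover the differences by GC content between these libraries. Other alternatives changed the pseudocount (0.1), filter, scaling, variance trend, replicate block and libraries used. The correction for GC and length, and leave-one-out in voom, were chosen after seeing the data. Members named by rule were those called by limma or voom, the 12 with the smallest p and the 8 most abundant. Outside this rule, values are also given for ADAM11, ADAM22, ADAMTS2, ADAMTS4, ADAMTS5, ADAMTS9, ADAMTS13, ADAMTS15, ADAMTS16 and ADAMTSL4. These additions were not a fixed selection. Lists gave up to 4 genes each. Members and lists were chosen with earlier results of these data known. Roles come from general knowledge. No value column was left out. Poisson intervals and floors cover counting error only; intervals of log2 changes are limma's, from the spread between libraries.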

Additional observations from a re-analysis of the deposited data

How the results depend on the processing

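Of the single genes under the alternatives, 432 values kept direction and call, 12 lost the call, 10 gained it and 6 turned in sign; ADAMTSL3, ADAMTS6 and the context genes that lost or gained a call are given with their values above, save TFPI2, which gained the call without miR-200a 2 (limma adjusted p = 0.0498). The sign turned for ADAM10 under rescaling to equal sums (0.0159), after the GC and length correction (0.0732) and in 3 fits with 1 library left out (range over all 6 such fits -0.0971 to 0.0440), and for ADAM15 after that correction (-0.0520). Over all tested genes, 49 were called (35 higher, 14 lower), against 5 with no filter, 199 by voom, 220 after the GC and length correction (134 higher, 86 lower), and 8 to 225 with 1 library left out, the highest without miR-200a 2. Of the members, 1 was called, against 0 with no filter, 0 with a filter of 0.1 FPKM, 0 under rescaling to equal sums, 2 by voom, and 0 to 3 with 1 library left out. Of the context genes none was called, against 2 by voom, 4 after the GC and length correction, and 0 to 2 with 1 library left out. The members' median log2 change ran from -0.07 to 0.07 with 1 library left out (-0.0749 without miR-200a 3, 0.0748 without miR-200a 2). With the replicate number as a block, 69 genes were called, among them 1 member. Deviations of same-numbered libraries from their group means correlated with r of 0.143, 0.367 and -0.0059 for numbers 1 to 3. The vector library of the same number was the best match for miR-200a 1 and 2, while miR-200a 3 correlated best with vector 1 (0.203). These values do not settle whether the numbers pair the libraries. Why calls were lost or gained under a setting was not tested. Members of a few reads are limited by depth, and their folds are imprecise.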
